A study of Mus musculus with 8 samples.

Results

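Transcripts of 9 genes of myelin and of the oligodendrocyte, the cell that wraps axons in the brain, were followed in RNA pulled down from PV+ interneurons. The 9 genes, *Mbp*, *Mobp*, *Cnp*, *Mag*, *Mog*, *Cldn11*, *Opalin*, *Mal* and *Ermn*, were picked by gene symbol from 45706 genes, and each symbol matched 1 gene. All 9 passed the filter on low counts, which left 17495 genes. The pulldown, translating ribosome affinity purification, used an antibody against HA to collect ribosomes that carry HA-tagged RPL10A, a ribosomal protein. Mice of genotype PvalbFlp/+;Neurod6Cre/+ received in the somatosensory cortex S1, at postnatal day 1, an AAV-flox-fdio virus that encodes HA-RPL10a and, after a T2A sequence, myc-hM3Dq. The hSyn promoter of this virus is active in neurons, its cassette is switched on by Flp, here expressed from *Pvalb*, and switched off by Cre, here expressed from the pyramidal cell gene *Neurod6*. The receptor hM3Dq raises neuronal activity when clozapine N-oxide (CNO) is given. Both groups carried the same alleles and virus and were 42 to 70 postnatal days old by the labels. The CNO group (4 samples) received 5 injections of 1 mg/kg CNO over about 48 h, the vehicle group (4 samples) received vehicle on the same schedule, and each sample pooled tissue from 4 brains. Oligodendrocytes are not the labelled cell type of any sample, and no RNA from before the pulldown was analysed here.

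Oligodendrocytes extend processes that wrap axons in stacked membrane. MBP holds the inner faces of this membrane together, and its mRNA is carried into the processes and translated there. MOBP is another small protein of compact myelin, CNP is an enzyme of the non-compacted parts, MAG faces the axon, and MOG lies on the outermost surface. CLDN11 forms the tight junctions of the sheath, OPALIN is a membrane glycoprotein of central myelin, MAL is a proteolipid of membrane domains, and ERMN is a cytoskeletal protein of mature oligodendrocytes. Many axons of cortical PV+ interneurons are themselves myelinated. MYRF and SOX10 are transcription factors that switch on myelin genes.

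The promoters of the genes are shown as sequence context; no measurement here bears on their use. RefSeq windows of 300 bases on GRCm38.p6, from 250 bases before the start site to 50 after it, were matched by symbol for 8 of the genes. For *Mbp* no window is given. The MYRF motif, searched as CTGGCAC or CTGGTAC on both strands, was present in 4 of the 8 windows, against 7.1% of all 32851 promoter windows. The SOX motif ACAAAG, also searched on both strands, was present in 4 of the 8 windows, *Mobp* (6 matches), *Opalin* (2 matches), *Cnp* (1 match) and *Mag* (1 match), against 18.7% of all windows. A second SOX form, ACAATG, was present in 1 of the 8 windows, against 12.6% of all windows. Of 11 strings searched, the other 7 (the E-box as CAGCTG or, in another form, as CATCTG, the TATA box as TATAAA, the CRE as TGACGTCA, the AP-1 motif as TGACTCA, the SRE by a 10-letter form and the YY1 motif as AAGATGGC, on both strands) were each present in 0 or 1 of the 8 windows. A match describes only the letters in this window. The 4 windows with the MYRF motif are printed 5′ to 3′ on the strand of the gene, with the motif, or its reverse complement, in capitals. They lie at chr11:100574689-100574988 (*Cnp*, plus strand), chr7:30914814-30915113 (*Mag*, minus strand, the window of 3 nearest to the annotated gene start), chr17:37023349-37023648 (*Mog*, minus strand) and chr19:41077064-41077363 (*Opalin*, minus strand).
Cnp: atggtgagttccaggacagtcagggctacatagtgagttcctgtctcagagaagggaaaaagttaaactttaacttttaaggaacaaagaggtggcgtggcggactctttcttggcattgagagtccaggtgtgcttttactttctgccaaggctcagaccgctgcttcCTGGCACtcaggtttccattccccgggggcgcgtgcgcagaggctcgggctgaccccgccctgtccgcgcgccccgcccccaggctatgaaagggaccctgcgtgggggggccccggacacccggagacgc
Mag: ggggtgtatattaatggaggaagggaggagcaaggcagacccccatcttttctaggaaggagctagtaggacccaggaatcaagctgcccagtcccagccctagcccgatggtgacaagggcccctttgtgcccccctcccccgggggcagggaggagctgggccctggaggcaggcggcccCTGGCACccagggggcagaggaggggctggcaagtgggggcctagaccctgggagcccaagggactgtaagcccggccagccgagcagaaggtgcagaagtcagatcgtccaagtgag
Mog: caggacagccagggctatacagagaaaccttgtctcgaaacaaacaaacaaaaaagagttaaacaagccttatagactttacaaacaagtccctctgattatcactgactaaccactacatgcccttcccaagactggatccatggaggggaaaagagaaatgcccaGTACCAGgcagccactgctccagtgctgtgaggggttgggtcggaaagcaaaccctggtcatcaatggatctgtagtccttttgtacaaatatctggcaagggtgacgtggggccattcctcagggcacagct
Opalin: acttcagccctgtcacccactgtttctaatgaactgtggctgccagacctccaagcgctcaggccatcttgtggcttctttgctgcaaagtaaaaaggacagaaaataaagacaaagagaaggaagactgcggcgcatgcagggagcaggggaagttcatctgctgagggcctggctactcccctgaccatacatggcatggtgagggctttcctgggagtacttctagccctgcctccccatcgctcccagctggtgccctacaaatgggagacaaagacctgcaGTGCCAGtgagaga
The capitals began 81 bases before the start site in *Cnp*, 68 bases before it in *Mag*, 83 bases before it in *Mog* and 36 bases after it in *Opalin*. *Cnp* and *Mag* held the forward letters and *Mog* and *Opalin* the reverse complement. The windows of *Mobp*, *Cldn11*, *Mal* and *Ermn* held neither form of the MYRF motif.

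The sequencing depth was similar in all samples, with 44064138 to 49413277 counts, so that a floor of 3 counts lay at 0.0607 to 0.0681 CPM (counts relative to the library total, TMM-normalized in what follows). This floor covers counting error only. *Fos*, an activity-induced gene that serves as a check of the labels, was at 32.2, 54.4, 40.3 and 69.5 CPM in the CNO samples and at 12.5, 15.8, 11.3 and 11.8 CPM in the vehicle samples. Vehicle replicate 1 stood apart: *Pvalb*, which encodes parvalbumin, was at 300.1 TPM (transcript levels corrected for length, with the same total in each sample) in this sample and at 819.7 to 1160.4 TPM in the other 7. None of the 12 PV+ interneuron markers was at 0 in any sample. For part of the fold changes, sums and correlations, values without this sample are also given below. The labels do not say whether samples of a group came from separate experiments, so p-values measure only the spread between these samples.

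All 9 genes were detected in all 8 samples, over a wide span of levels. *Mbp* led with 254 ± 58.2 TPM (SD, n = 8), which was above 96.8% of the tested genes. Its values were 172, 353, 262 and 197 TPM in CNO replicates 1 to 4 and 275, 213, 296 and 259.6 TPM in vehicle replicates 1 to 4. CNO replicate 1 was the lowest and CNO replicate 2 the highest of all 8, so the vehicle values lay inside the CNO range. These levels rested on 8678 to 15050 counts per sample. *Mbp* has 16 annotated transcripts, and the gene-level value adds them up.

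*Cnp* came next with 116 ± 22.7 TPM (SD, n = 8). It measured 92.5, 132, 107 and 83.3 TPM in the CNO samples and 155, 127, 109 and 119 TPM in the vehicle samples, in order of replicate number. The groups overlapped through CNO replicate 2, while the other 3 CNO samples were below every vehicle sample. The gene lies at chr11:100574904-100591729 on the plus strand of GRCm38 and overlaps *Dnajc7*, a gene on the opposite strand with a mean of 259.9 TPM. The library kit does not mark strand, and 3.52% of the 31-base stretches of *Cnp* transcripts also occur in *Dnajc7*, so reads in the overlap cannot be told apart. *Mobp* (chr9:120149707-120181484, plus strand), at 81.5 ± 18.0 TPM (SD, n = 8), measured 61.3, 95.8, 80.5 and 64.7 TPM in the CNO samples and 117, 74.4, 80.5 and 77.1 TPM in the vehicle samples. Vehicle replicate 1 was above all other samples for both genes.

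Transcripts for the adhesion proteins of the inner and outer sheath surfaces had intermediate levels. *Mag* (chr7:30899176-30914873, minus strand) was at 22.8, 39.4, 28.8 and 20.4 TPM in the CNO samples and at 40.3, 32.3, 35.1 and 32.6 TPM in the vehicle samples, with a mean of 31.5 ± 7.17 TPM (SD, n = 8). CNO replicates 1, 3 and 4 were below every vehicle sample in TPM, and CNO replicate 2 was above 3 of the 4 vehicle samples. *Mog* (chr17:37010743-37023398, minus strand) was at 23.6, 29.9, 23.3 and 17.9 TPM in the CNO samples and at 37.6, 26.2, 29.6 and 23.3 TPM in the vehicle samples, with a mean of 26.4 ± 5.93 TPM (SD, n = 8).

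The remaining 4 genes were below 21 TPM in every sample. *Mal* (chr2:127633226-127656695, minus strand) measured 12.3, 18.4, 16.5 and 13.9 TPM with CNO and 18.7, 15.9, 16.7 and 20.7 TPM with vehicle. *Ermn* (chr2:58045113-58052864, minus strand) measured 7.56, 12.1, 9.72 and 7.72 TPM with CNO and 14.0, 9.85, 9.29 and 12.3 TPM with vehicle. Both were lowest in CNO replicate 1. In *Ermn*, 7.06% of the 31-base stretches occur in other transcripts, and *Galnt5*, which overlaps it on the opposite strand, was near 0 with a mean of 0.0317 TPM. *Opalin* (chr19:41061710-41077113, minus strand) measured 5.91, 6.13, 6.15 and 3.83 TPM with CNO and 7.80, 7.64, 6.02 and 6.42 TPM with vehicle. *Cldn11* (chr3:31149920-31164324, plus strand) was the lowest with 2.72, 3.63, 3.82 and 2.16 TPM with CNO and 3.81, 3.23, 2.82 and 3.78 TPM with vehicle. Both were lowest in CNO replicate 4, where *Opalin* rested on 148 counts and *Cldn11* on 85. Counting error alone comes to 8.22% and 10.8% of the value at these counts.

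**Figure D1:**
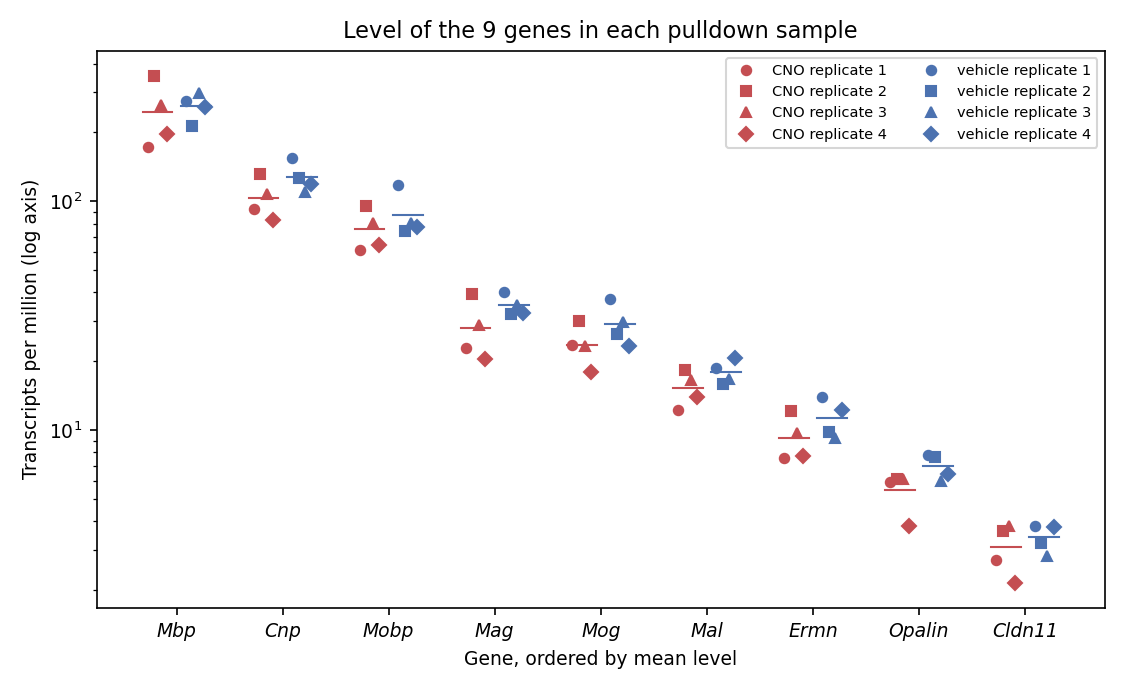
Level of each of the 9 genes in the 8 samples, in TPM on a log axis, with genes ordered by mean level from left to right. Red symbols are CNO samples and blue symbols vehicle samples, the symbol shape gives the replicate number and each line is a group mean (n = 4); CNO and vehicle symbols overlap for all 9 genes.

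The order of the 9 levels in TPM was stable within samples. This order depends on the correction for transcript length. In counts, *Mog* was below *Mal* and *Ermn* in every sample, with 424 to 689 counts. *Mal* had 717 to 1193 counts and *Ermn* 589 to 942. Differences of log2(TPM + 1) between neighbours in the order *Mbp*, *Cnp*, *Mobp*, *Mag*, *Mog*, *Mal*, *Ermn*, *Opalin*, *Cldn11* had the same sign in 8 of 8 samples for 7 of the 8 pairs, which gave the smallest p that the test allows (two-sided exact sign-flip permutation test, p = 0.00781, adjusted p = 0.00893 over 8 pairs). *Mag* exceeded *Mog* in 7 of 8 samples, by 0.24 ± 0.16 (SD, n = 8) on the log2 scale (exact permutation test, p = 0.0156, adjusted p = 0.0156). *Mog* was higher in TPM in CNO replicate 1, where it had 501 counts and *Mag* 1054. The steps were largest between *Mobp* and *Mag*, at 1.35 ± 0.17, and between *Mbp* and *Cnp*, at 1.12 ± 0.27 (SD, n = 8, log2 scale). The order was taken from the mean TPM of these same 8 samples, so the direction of each test was set by the data tested. The p-values describe how steady the differences were across the samples and are no separate support for the order.

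The 9 genes varied together from sample to sample. In CPM, all 9 were below their own 8-sample mean (of log2 values) in CNO replicate 4, and all 9 were above it in vehicle replicate 1. CNO replicate 1 was among the lowest 2 samples for 8 of the 9 genes, *Opalin* being the exception. The median deviation of the 9 genes was -0.34 in CNO replicate 1 and -0.35 in CNO replicate 4 on the log2 scale, against 0.15 in CNO replicate 2 and 0.25 in vehicle replicate 1. The other 4 samples had medians between 0.00 and 0.06. The low and the high samples thus included members of the same group, and the lowest 2 were both CNO samples.

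Across the 8 samples, all 36 pairs of the 9 genes had a Pearson r above 0 in log2 CPM, with a median of 0.70. The highest was 0.92 for *Cnp* and *Mog*, and the lowest was 0.17 for *Mbp* and *Opalin*. These coefficients describe 8 libraries whose make-up differed in other ways as well. The summed level of the 9 genes was 401, 690.3, 539 and 411 TPM in the CNO samples and 669, 509.6, 586 and 555 TPM in the vehicle samples, which is 0.0401% to 0.069% of all TPM.

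**Figure D2:**
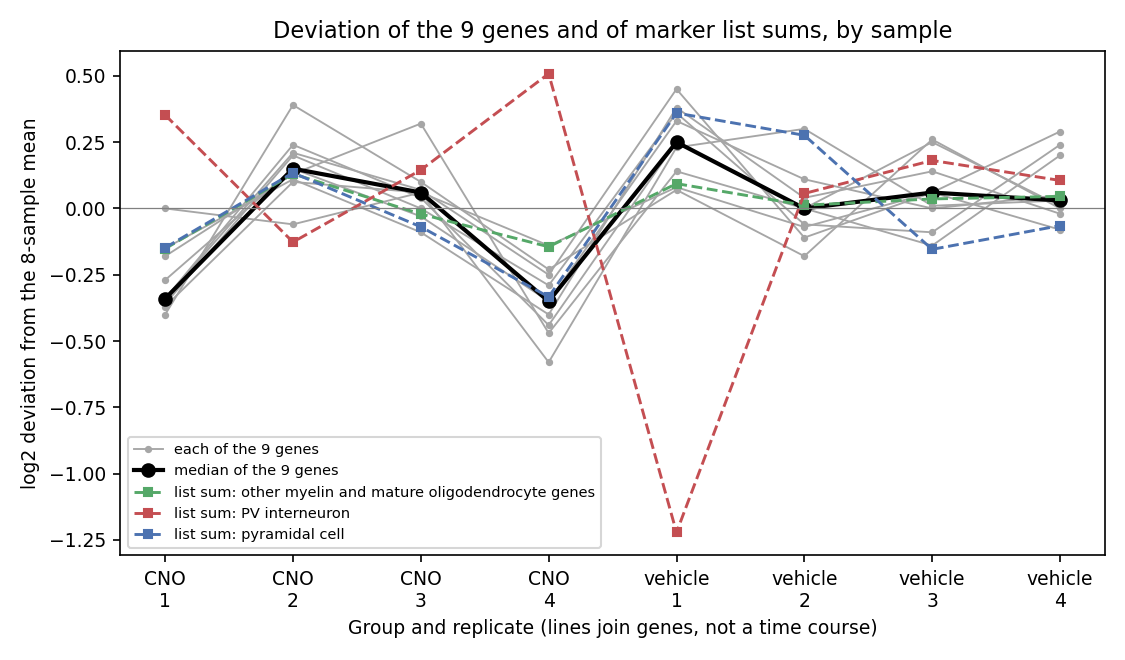
Deviation of each of the 9 genes (grey, log2 CPM), of their median (black) and of the summed TPM of 3 marker lists (dashed, log2) from the mean of the 8 samples, by sample. The black line is lowest in CNO replicates 1 and 4, at -0.34 and -0.35, and highest in vehicle replicate 1, at 0.25, where the sum of the PV+ interneuron markers is lowest.

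The share of each gene in this sum varied less than the level of the gene. *Mbp* gave 41.1% to 51.1% of the sum, *Cnp* 18.7% to 24.9% and *Mobp* 13.7% to 17.6%. The standard deviation of the level of a gene over the 8 samples was 16.2% (*Mal*) to 23.0% (*Mbp*) of its mean. For the share of the gene within the sum it was 7.40% (*Mag*) to 19.5% (*Opalin*), and it was below that of the level for all 9 genes. The sum contains the gene itself and follows what the 9 genes have in common, so a lower value for the share is partly built in. The gap was widest for *Mag*, with 22.8% for the level and 7.40% for the share, and was near 0 for *Opalin*, with 19.6% and 19.5%. *Opalin* made up 1.48% of the sum in CNO replicate 1 and 0.888% in CNO replicate 2. Within groups, the spread of log2 CPM was 0.19 to 0.28 for the 9 genes and had a median of 0.21 over the 15173 tested genes with a mean TPM above 1.

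**Figure D3:**
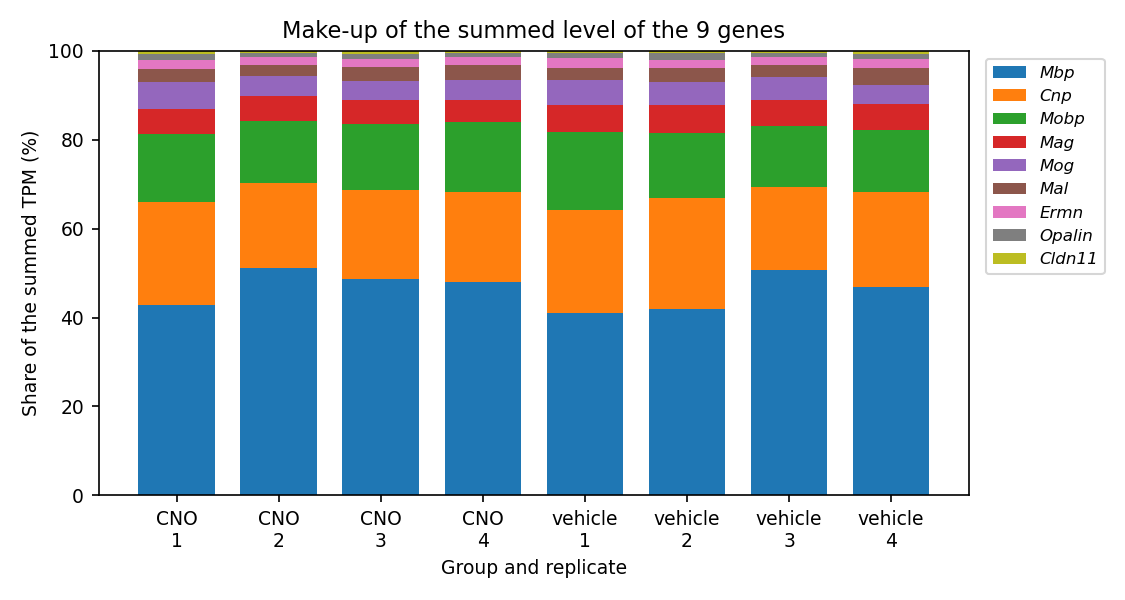
Share of each of the 9 genes in their summed TPM (percent, axis from 0 to 100), by sample. *Mbp*, at the foot of each bar, makes up 41.1% to 51.1% in every sample.

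Next, CNO was compared with vehicle to ask whether raised activity of PV+ interneurons changed the level of these transcripts. All 9 genes had a lower mean in CNO samples, but none passed the test, and CNO and vehicle values overlapped for each of them. *Mog* had 10.8 ± 1.56 CPM (SD, n = 4) with CNO and 13.0 ± 1.68 CPM (SD, n = 4) with vehicle, which is -0.27 in fitted log2 fold change with a 95% confidence interval of -0.56 to 0.03 (edgeR quasi-likelihood test, adjusted p = 0.817 over all genes). *Cnp* had 109.9 ± 17.5 CPM with CNO and 129.7 ± 13.7 CPM with vehicle (SD, n = 4), with an interval of -0.52 to 0.04 around -0.24. *Opalin* had the same fitted change as *Mog*, -0.27, with a wider interval of -0.64 to 0.10. At the other end, *Mbp* had 242 ± 59.7 CPM with CNO and 251 ± 32.0 CPM with vehicle (SD, n = 4), with a fitted change of -0.05 and an interval of -0.43 to 0.32.

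The other 5 genes lay between these values. The log2 fold change was -0.23 for *Mag*, -0.22 for *Ermn*, -0.17 for *Mal*, -0.16 for *Mobp* and -0.08 for *Cldn11*. Adjusted p-values of the 9 genes from edgeR ranged from 0.817 to 0.94. The intervals of 8 genes excluded a 1.5-fold change in both directions, and that of *Opalin* reached a lower limit of 0.642-fold.

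A gene was called where its adjusted p was under 0.05, its fold change over 1.5 and its mean level over 1 TPM. By these cut-offs edgeR called 0 of the 9 genes, and it called 0 (0.0%) of the 17495 genes tested. *Fos*, the check of the labels, was not called either. Its log2 fold change was 1.93 and its adjusted p the smallest of all (edgeR quasi-likelihood test, adjusted p = 0.052). DESeq2 and limma also called 0 of the 9, and over all genes DESeq2 called 10 and limma 0. The Methods of the paper name edgeR with a robust dispersion estimate. With that estimate and a likelihood ratio test, 0 of the 9 and 12 of all genes were called, so the count of 0 over all genes depends on the test. At an unadjusted p under 0.05 there were 0 of the 9 genes, against 716 genes (4.09%) of all tested, of which 252 were higher and 464 lower with CNO. Scaling to library size alone moved that split to 129 higher and 736 lower. All CNO samples were below all vehicle samples for 0 of the 9 genes and for 1.63% of all genes. A log2 fold change below 0, at any p, was found for 9 of the 9 genes and for 49.6% of all genes. Because the 9 genes varied together across samples, this count of 9 does not stand for 9 separate observations. The median log2 fold change was -0.22 over the 9 genes and 0.0014 over all genes tested.

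The direction rested partly on single samples. Without CNO replicate 2, 4 of the 9 genes had an unadjusted p under 0.05, with fitted changes of -0.34 for *Cnp*, -0.36 for *Mag*, -0.35 for *Mog* and -0.34 for *Ermn*. Their adjusted p by edgeR was 0.472. In the same fit, 1683 of all 17495 genes had an unadjusted p under 0.05, against 716 with all samples. Of these 1683 genes, 757 were higher and 926 lower with CNO. Without vehicle replicate 1, all 9 values were still below 0, with a median of -0.17, and that of *Mobp* was -0.02. *Mbp* turned to 0.06 without CNO replicate 1, to 0.01 without CNO replicate 4 and to 0.03 without vehicle replicate 3, and *Cldn11* turned to 0.04 without CNO replicate 4.

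**Figure D4:**
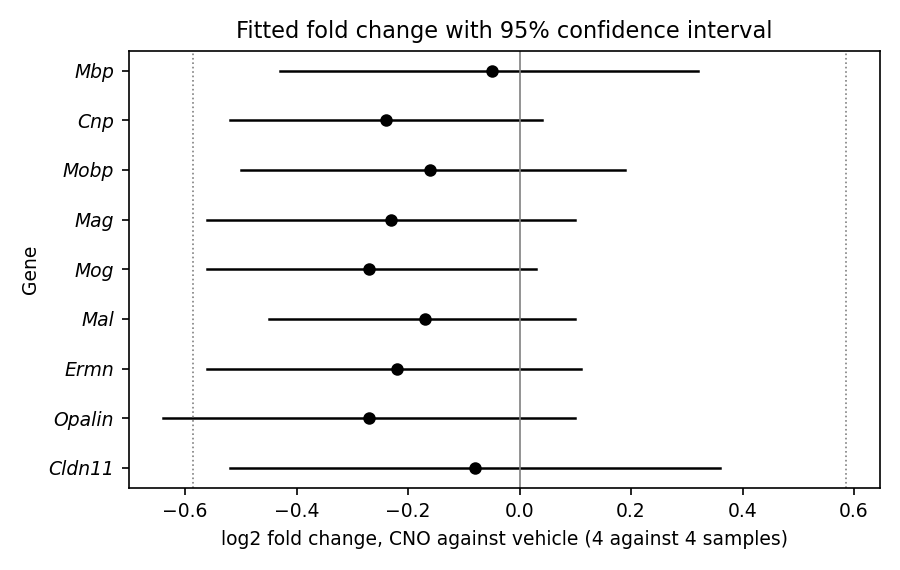
Fitted log2 fold change of CNO against vehicle for each of the 9 genes (points), with its 95% confidence interval (lines, edgeR, 4 against 4 samples); dotted lines mark a 1.5-fold change. All 9 points are left of 0, from -0.27 to -0.05, and all 9 intervals include 0.

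The summed level of the 9 genes was 510.1 ± 136 TPM (SD, n = 4) with CNO and 579.9 ± 67.2 TPM (SD, n = 4) with vehicle, and the groups overlapped. The log2 ratio of the group means was -0.18, with -0.37 without CNO replicate 2 and -0.09 without CNO replicate 1 or CNO replicate 4 and -0.11 without vehicle replicate 1. A lower level with CNO was not established, as the groups overlapped and none of the 9 genes was called. As sources of any difference in these bulk pulldown samples, fewer oligodendrocytes and less RNA per oligodendrocyte cannot be told apart. The same holds for less RNA from unlabelled cells or more RNA from PV+ cells in the pulldown, since TPM is a share.

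Other genes of the oligodendrocyte had similar values, and none was called. Of 36 other myelin and mature oligodendrocyte genes, 30 had a log2 fold change below 0 and 6 above, with a median of -0.14, and 0 had an unadjusted p under 0.05. *Stmn4*, with a mean of 266 TPM, and *Qdpr*, with a mean of 174 TPM, had log2 fold changes of 0.25 and 0.09. Of 18 genes of myelin lipid synthesis, led by *Hmgcs1*, *Degs1* and *Cers2*, 13 were below 0, with a median of -0.07. Of 11 oligodendrocyte transcription factors, led by *Olig1*, *Sox8* and *Zfp536*, 10 were below 0, with a median of -0.16.

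Of 17 genes of oligodendrocyte precursors and newly formed oligodendrocytes, led by *Fyn*, *Bcas1* and *Tnr*, 16 were below 0, with a median of -0.15. In these 4 oligodendrocyte lists 1 gene had an unadjusted p under 0.05. This was *Vcan*, which encodes the matrix proteoglycan versican of precursors, with 2.26 ± 0.411 CPM with CNO and 3.38 ± 0.893 CPM with vehicle (SD, n = 4) and a log2 fold change of -0.58 (edgeR, adjusted p = 0.817). Its mean of 0.938 TPM was below the cut-off on level. In a list named for the axon side of the contact, led by *Ank3*, *Lgi3* and *Cadm2*, 7 of 15 genes were below 0. The median of this list was 0.01. Gene-level values do not tell axonal from glial transcripts of these genes. The medians without vehicle replicate 1 were -0.11 for the other mature oligodendrocyte genes, -0.08 for lipid synthesis, -0.06 for the transcription factors, -0.09 for precursors and -0.03 for the axon-side genes.

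Marker lists of other cell types are given beside these values, and none of their genes was called. The summed level of 12 PV+ interneuron markers, led by *Gad1*, *Pvalb* and *Kcnc1*, was 2679 to 4160.1 TPM with CNO and 1255 to 3316 TPM with vehicle. Some of these markers, *Gad1* among them, are also expressed by other GABAergic interneurons, so the sum is not specific to PV+ cells. All 12 had a log2 fold change above 0, with a median of 0.43, and 1 had an unadjusted p under 0.05. Without vehicle replicate 1 the sum was 3452 ± 639 TPM (SD, n = 4) with CNO and 3168 ± 138 TPM (SD, n = 3) with vehicle, 11 of the 12 were above 0 and the median was 0.19. The sum of the 9 myelin genes was 10.7%, 25.8%, 16.7% and 9.87% of the sum of the PV+ interneuron markers in the CNO samples and 53.3%, 16.8%, 17.7% and 17.6% in the vehicle samples. The samples with the lowest level of the 9 genes, CNO replicates 1 and 4, had the highest sums of PV+ interneuron markers. The part of this difference in the myelin result was not tested.

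Of the other lists, pyramidal cell markers, led by *Nrgn*, *Slc17a7* and *Camk2a*, summed to 1425 to 1971 TPM with CNO and 1613 to 2304 TPM with vehicle, and 11 of 12 were below 0 with a median of -0.13. For microglia, with *P2ry12* and *C1qc* among the genes, the sums were 86.5 to 135 TPM and 112 to 152 TPM, and 10 of 10 were below 0 with a median of -0.22. For astrocytes, led by *Aldoc*, *Slc1a3* and *Slc1a2*, they were 538 to 636 TPM and 554 to 713 TPM, and 8 of 10 were below 0 with a median of -0.15. Blood vessel genes, led by *Ly6c1*, *Vtn* and *Cldn5*, had sums of 87.2 to 236 TPM and 126 to 187 TPM, and 9 of 10 were above 0 with a median of 0.26. Markers of other interneurons, led by *Lamp5*, *Cck* and *Sst*, had 6 of 9 below 0 and a median of -0.02. An unadjusted p under 0.05 was found for 1 microglia gene and 2 other interneuron genes, all lower with CNO. It was found for 0 genes of the pyramidal cell, astrocyte and blood vessel lists. Without vehicle replicate 1 the medians were -0.07 for pyramidal cells, -0.11 for microglia, -0.07 for astrocytes, 0.21 for blood vessels and -0.03 for other interneurons. No gene of these lists was at 0 in any sample, and the part of these cell types in the myelin result was not tested.

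Finally, the genes whose pattern was most like that of the 9 genes were sought by the Pearson r of log2 CPM with the mean of the 9 over the 8 samples. Over 15164 genes with a mean TPM above 1 the median r was -0.01, and 220 genes were above 0.9. The 10 highest, with r from 0.979 to 0.992, were *Daglb*, *Gab1*, *Gpr37*, *Pmaip1*, *Nell1*, *Tmem88b*, *Cdkn1c*, *Slc17a7*, *Tapbp* and *Kcnc4*. *Gpr37* and *Tmem88b* belong to the list of mature oligodendrocyte genes, and *Slc17a7* encodes the vesicular glutamate transporter of pyramidal cells. Of the 100 highest, 7 belong to the lists named for oligodendrocytes, which hold 0.402% of the genes compared. Without CNO replicates 1 and 4, the samples farthest from the median, the 10 genes had r values down to 0.857 over 6 samples. Without vehicle replicate 1 the lowest was 0.974.

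By list, the median r with the 9 genes was 0.75 for the other mature oligodendrocyte genes, 0.80 for the oligodendrocyte transcription factors, 0.57 for myelin lipid synthesis and 0.41 for precursors. It was 0.75 for astrocytes, 0.74 for microglia, 0.59 for pyramidal cells, 0.22 for blood vessels, -0.02 for other interneurons and -0.26 for the axon-side genes. All 12 PV+ interneuron markers had an r below 0, with a median of -0.76, and without vehicle replicate 1 this median was -0.82. Leaving out that sample turned the median of the axon-side genes to 0.11 and that of other interneurons to 0.08, and moved that of blood vessels to 0.50. *Stmn4*, *Adssl1* and *Qdpr*, the genes of the mature oligodendrocyte list farthest below 0, had r values of -0.902, -0.818 and -0.716. *Adssl1* was named after its values were seen. Which cell type gave the transcripts of a listed gene was not tested, for these genes or for the other oligodendrocyte lists. All points share their libraries, so that any difference in make-up between libraries enters every coefficient.

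**Figure D5:**
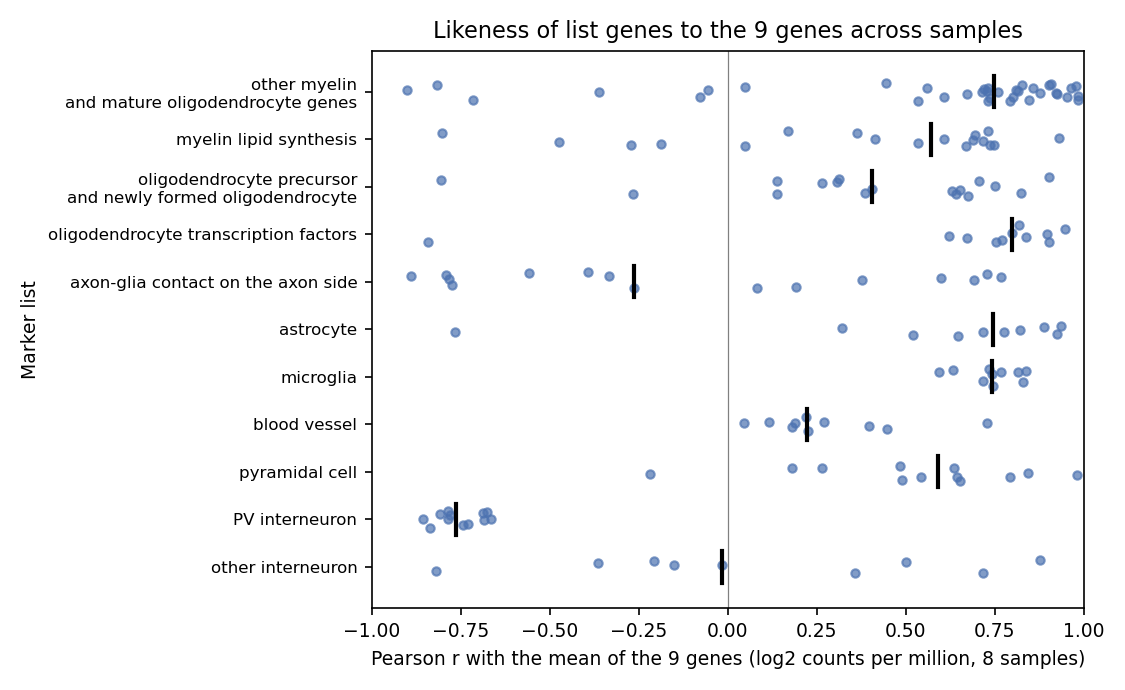
Pearson r of each gene of 11 marker lists with the mean of the 9 genes, in log2 CPM over 8 samples; each point is a gene and each black bar is the median of the list. The 12 PV+ interneuron markers lie below 0, with a median of -0.76, and the medians of the oligodendrocyte, astrocyte, microglia and pyramidal cell lists lie between 0.41 and 0.80.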

How the data were processed

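Per the labels and the Methods, the authors sequenced SMARTer Ultra Low libraries paired-end, used Trim Galore for trimming, STAR for alignment to GRCm38 and Salmon for quantification; versions are not given in the sources used here. The authors deposited estimated counts per gene, not normalized, and TPM calculated from them. Both add up all transcripts of a gene, and TPM, being a share, falls for a gene when others rise.

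Counts were rounded and analysed with edgeR 4.0.16 in R 4.3.3. Genes with under 10 counts in 4 or more of the 8 samples were excluded, and the quasi-likelihood test compared CNO with vehicle after TMM normalization, with p-values adjusted over all genes by Benjamini-Hochberg. Log2 CPM used a prior count of 2. Promoters came from RefSeq, positions from GENCODE, which holds 45143 of the 45706 gene identifiers. Alternatives used DESeq2 1.42.0, limma 3.58.1, other normalizations, filters and terms, and each sample left out.

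The members and lists were chosen with earlier results of these data known. Genes named are the 9 members, the 10 most alike, the leading 3 of each list, oligodendrocyte genes with an unadjusted p under 0.05, *Fos* and *Pvalb*; some genes that this rule names are not reported here.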

Additional observations from a re-analysis of the deposited data

Results flagged for a closer look

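In 22 sets of 4 samples (each of the 9 genes, their summed TPM and their sum relative to the PV+ interneuron markers, in each group), 1 sample lay farther from the others than Dixon's 95% limit allows, and chance alone gives about 1 in 20. In vehicle replicate 1 the sum of the 9 genes was 53.3% of the sum of the PV+ interneuron markers, against 16.8% to 17.7% in the other vehicle samples, with a gap of 0.954 of the range on the log2 scale. The summed TPM of the 9 genes in this sample was 669, against 509.6 to 586, and that of the PV+ interneuron markers was 1255, against 3042 to 3316.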

How the results depend on the processing

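None of the 9 genes was called under any of the 18 alternatives, and all 9 stayed lower with CNO under every alternative of test, normalization, filter, unit or term. With a sample left out, 7 to 9 were lower: *Mbp* ranged from -0.21 to 0.06 and *Cldn11* from -0.21 to 0.04. Genes called over the whole table went from 0 to 12 with robust dispersion and the likelihood ratio test, to 10 with DESeq2, to 4 with no filter and to 3 with a term for replicates 1 and 2 against 3 and 4, and were 0 to 2 with a sample left out. At an unadjusted p under 0.05, the 716 genes became 1126 with no filter, 1193 with that term, and 318 to 1683 with a sample left out. The cause was not tested. The lowest r of the 10 most alike genes fell from 0.979 to 0.857 without CNO replicates 1 and 4, where fewer samples enter. With the replicate block, 0 genes were called and 765 had an unadjusted p under 0.05. Deviations of same-numbered samples correlated at 0.0263, -0.0302, 0.161 and 0.239, and not every sample correlated best with its own number, so the samples were taken to share only a number. Of the 8 CNO-vehicle pairs within replicates 1 and 2 or within 3 and 4, 7 correlated above 0 (up to 0.431), and all 8 pairs across them correlated below 0 (-0.403 to -0.0446). Deviations were taken from the mean of each group, so values above 0 within these sets bring values below 0 across them. The log2 ratio of the summed level, -0.18, was -0.14 in CPM and -0.19 without *Trp53bp1* and *Bcar1*, which take 11.7% to 20.7% of all TPM, an alternative chosen after seeing the data, as were r and the list values without vehicle replicate 1. All 8 neighbouring pairs of levels, in the order set by all 8 samples, passed with 0.1 in place of 1 added and with any sample left out.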
